A study of Mus musculus with 2 samples.

Results

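The 8 genes described here are Msln, Syngr1, Phgr1, Slc25a48, Upp1, Plac8, Adtrp and Tmsb10, out of 17492 genes counted. They were picked because their counts in the outer, suprabasal layers of the mouse corneal epithelium differed between a diabetic and a control library, so their differences in those layers are a description and support nothing. Each gene was read from its row of the count matrix, with cells grouped by the authors' cell type labels and Wing and Squam cells kept apart. The diabetic library came from male C57BL/6J mice aged 20 weeks that had received 1 injection of streptozotocin at 160 mg/kg, a toxin of the insulin-producing beta cells, and stayed hyperglycaemic, with glucose over 250 mg/dL for a 12-week study. The control library came from male C57BL/6J mice of the same age injected with the sodium citrate buffer. Each library was 1 pool of 4 corneas from 2 mice, the epithelium being lifted with an enzyme, broken into single cells with trypsin and run on the Chromium 3′ v3.1 assay, where every captured RNA molecule gets a random tag, the unique molecular identifier (UMI), and PCR copies with 1 tag count as 1 molecule.

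The corneal epithelium is a stratified sheet that renews itself from stem cells at its rim. Cells leave the basal layer, flatten into wing cells held together by desmosomes and end as superficial squamous cells, which carry the tight junctions and membrane mucins that face the tear film. In diabetes this epithelium is known for slow healing, reduced nerve supply and a weakened barrier. The genes described here encode proteins of the cell surface, of membranes, of mitochondria, of nucleotide salvage and of the actin cytoskeleton, and are not members of 1 pathway.

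The diabetic library held 8203 cells with a median of 17677 UMIs, and the control library 9605 cells with a median of 16487. With 1 library per group there was no replicate, no test was run, and every interval below is a 95% interval for counting error only. Labels were checked against marker lists. Of 8 wing markers, 6 were highest in the cells labelled Wing in each library, among them the desmosome gene Dsg1a in both. The exceptions in the diabetic library were Krt6a and Dsc2, highest in Conj cells, and in the control library Krt6a, highest in Conj, and Dsc3, highest in LSC cells. Of 8 superficial markers, 7 in the diabetic and 6 in the control library were highest in the cells labelled Squam, among them Psca, the claudin gene Cldn23 and the mucin gene Muc4. Cldn4 was highest in Conj cells in both libraries, and the mucin gene Muc16 was near 0 everywhere, with 3 counts in diabetic and 0 in control Squam cells. The 2 libraries shared 18 cell barcodes, which touched 6 diabetic and 6 control Wing cells, and 0 diabetic and 1 control Squam cells.

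Levels are the summed UMIs of a gene over the cells of a label, scaled to 1000000 UMIs of the same sum (CPM). By a rule of size, a difference counted as a call where the CPM differed at least 1.5-fold, the libraries together held at least 50 counts of the gene, and the intervals of both levels did not overlap. In Wing cells 3 of the 8 genes were higher and 4 lower by this rule, where 3.93% of the 12080 genes with enough counts were higher and 2.59% lower. In Squam cells 4 were higher and 3 lower, where 1.79% of 10313 genes were higher and 7.75% lower. Since the genes were picked from these contrasts, nothing is read from that excess. The median log2 ratio of all genes was 0.04 in Wing and -0.08 in Squam cells.

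**Figure D1:**
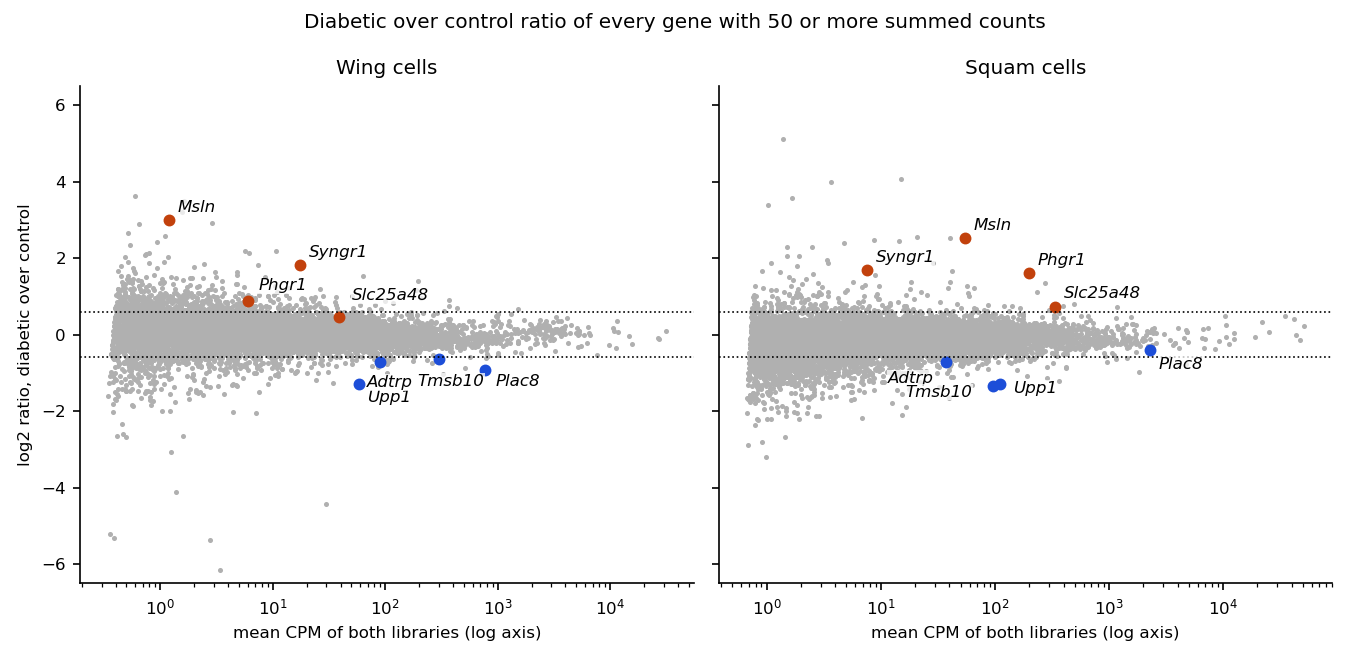
Log2 CPM ratio, diabetic over control (vertical axis), against the mean CPM of both libraries (log axis) for every gene with 50 or more summed counts and a count in both libraries, in Wing (left) and Squam cells (right); the 8 genes are coloured red where higher and blue where lower in the diabetic library, and dotted lines mark the 1.5-fold limit. Slc25a48 in Wing and Plac8 in Squam cells lie inside the dotted lines.

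The genes lie on 7 chromosomes of the mouse build GRCm38, as annotated by GENCODE M21. Msln spans chr17:25748613-25754378 on the minus strand, Syngr1 chr15:80091334-80119501 on the plus strand, Phgr1 chr2:118772769-118778165 on the plus strand and Slc25a48 chr13:56438355-56474239 on the plus strand. Upp1 spans chr11:9118103-9136170 on the plus strand, Plac8 chr5:100553725-100572245 on the minus strand, Adtrp chr13:41763148-41847684 on the minus strand and Tmsb10 chr6:72957347-72958748 on the minus strand. Syngr1 overlaps the ribosomal protein gene Rpl3 on the opposite strand, and Adtrp overlaps 2 annotated antisense RNAs. Whether the counting used strand is not given in the sources used here, and without strand the reads of such pairs cannot be told apart. In Wing cells Rpl3 had 1735 CPM in the diabetic and 1608 CPM in the control library.

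Promoter windows, 250 bases before to 50 after the start site, are shown for 4 genes whose Squam level exceeded their Wing level in both libraries. Of these, Phgr1 and Slc25a48 were higher in the diabetic library in both layers, and Upp1 and Plac8 were lower in it. The sequences are those of RefSeq on GRCm38.p6, 5′ to 3′ on the gene's strand. Where RefSeq has several windows for a gene, the one whose start site lies nearest to the GENCODE start is given. Capitals mark matches to letters that are recognised by known factor families: TGANTCA (AP-1), ACCGGTT (grainyhead-like factors) and CCCACCC (Krüppel-like factors), searched on both strands.
Phgr1, chr2:118772524-118772823, plus strand: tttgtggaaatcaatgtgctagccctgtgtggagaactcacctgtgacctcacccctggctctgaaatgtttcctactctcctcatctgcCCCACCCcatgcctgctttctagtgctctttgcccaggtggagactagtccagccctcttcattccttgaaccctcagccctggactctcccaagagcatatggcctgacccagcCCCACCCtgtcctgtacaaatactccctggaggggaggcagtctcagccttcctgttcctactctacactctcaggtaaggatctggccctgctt
Slc25a48, chr13:56438105-56438404, plus strand: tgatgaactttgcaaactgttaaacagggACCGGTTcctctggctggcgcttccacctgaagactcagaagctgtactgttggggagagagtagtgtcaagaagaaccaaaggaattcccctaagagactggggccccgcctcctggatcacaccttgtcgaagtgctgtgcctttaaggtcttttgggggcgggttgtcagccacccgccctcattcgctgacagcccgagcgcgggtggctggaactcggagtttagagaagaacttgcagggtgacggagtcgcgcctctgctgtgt
Upp1, chr11:9117853-9118152, plus strand: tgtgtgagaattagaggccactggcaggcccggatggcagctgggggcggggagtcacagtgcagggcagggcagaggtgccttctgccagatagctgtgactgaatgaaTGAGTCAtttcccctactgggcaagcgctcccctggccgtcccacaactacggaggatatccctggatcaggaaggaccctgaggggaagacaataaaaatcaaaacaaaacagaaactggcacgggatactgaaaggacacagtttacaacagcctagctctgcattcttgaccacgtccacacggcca
Plac8, chr5:100572156-100572455, minus strand: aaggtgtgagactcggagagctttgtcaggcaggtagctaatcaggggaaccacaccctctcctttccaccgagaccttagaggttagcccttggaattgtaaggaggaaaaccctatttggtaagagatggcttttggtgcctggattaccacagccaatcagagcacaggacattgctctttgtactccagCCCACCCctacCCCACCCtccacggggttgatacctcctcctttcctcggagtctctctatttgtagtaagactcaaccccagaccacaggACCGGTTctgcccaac

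Counting the start site as 0, the Phgr1 window held the Krüppel-like letters at -160 to -154 and at -45 to -39, and the Plac8 window at -57 to -51 and at -46 to -40. The Tmsb10 window held it on the other strand at -68 to -62, and 17.5% of all 32851 RefSeq windows of this length held it. The grainyhead-like letters lay at -221 to -215 in Slc25a48, which was higher in diabetic Squam cells, and at 34 to 40 in Plac8, which was lower, and in 1.02% of all windows. This motif was chosen after the sequences had been read. The AP-1 letters lay at -140 to -134 in Upp1 and in 7.81% of all windows. The E-box CACGTG, in 7.15% of all windows, was found in Adtrp. An NF-kappa-B motif (1.47% of all windows), the TATA box (13.6%) and the palindromic glucocorticoid response element (0.00913%) were found in 0 of the 7 windows available. None of these motifs overlapped another in the windows shown. A match describes letters in these windows and shows no binding.

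The 8 genes sat at different heights in the epithelium. Msln, Phgr1, Slc25a48 and Plac8 were highest in Squam cells in both libraries. The Squam level of Msln exceeded its Wing level 44.4-fold in the diabetic and 61.4-fold in the control library, and that of Phgr1 38.3-fold in the diabetic and 23.3-fold in the control library. For Slc25a48 the step was 9.38-fold in the diabetic and 7.76-fold in the control library, and for Plac8 3.70-fold in the diabetic and 2.59-fold in the control library. In both libraries Upp1 was highest in Conj cells, Adtrp was highest in Wing cells, and Tmsb10 was lowest in Squam cells. Syngr1 was highest in diabetic Wing cells at 27.2 CPM, while in the control library its Conj level of 9.54 CPM and its Wing level of 7.78 CPM had overlapping intervals.

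**Figure D2:**
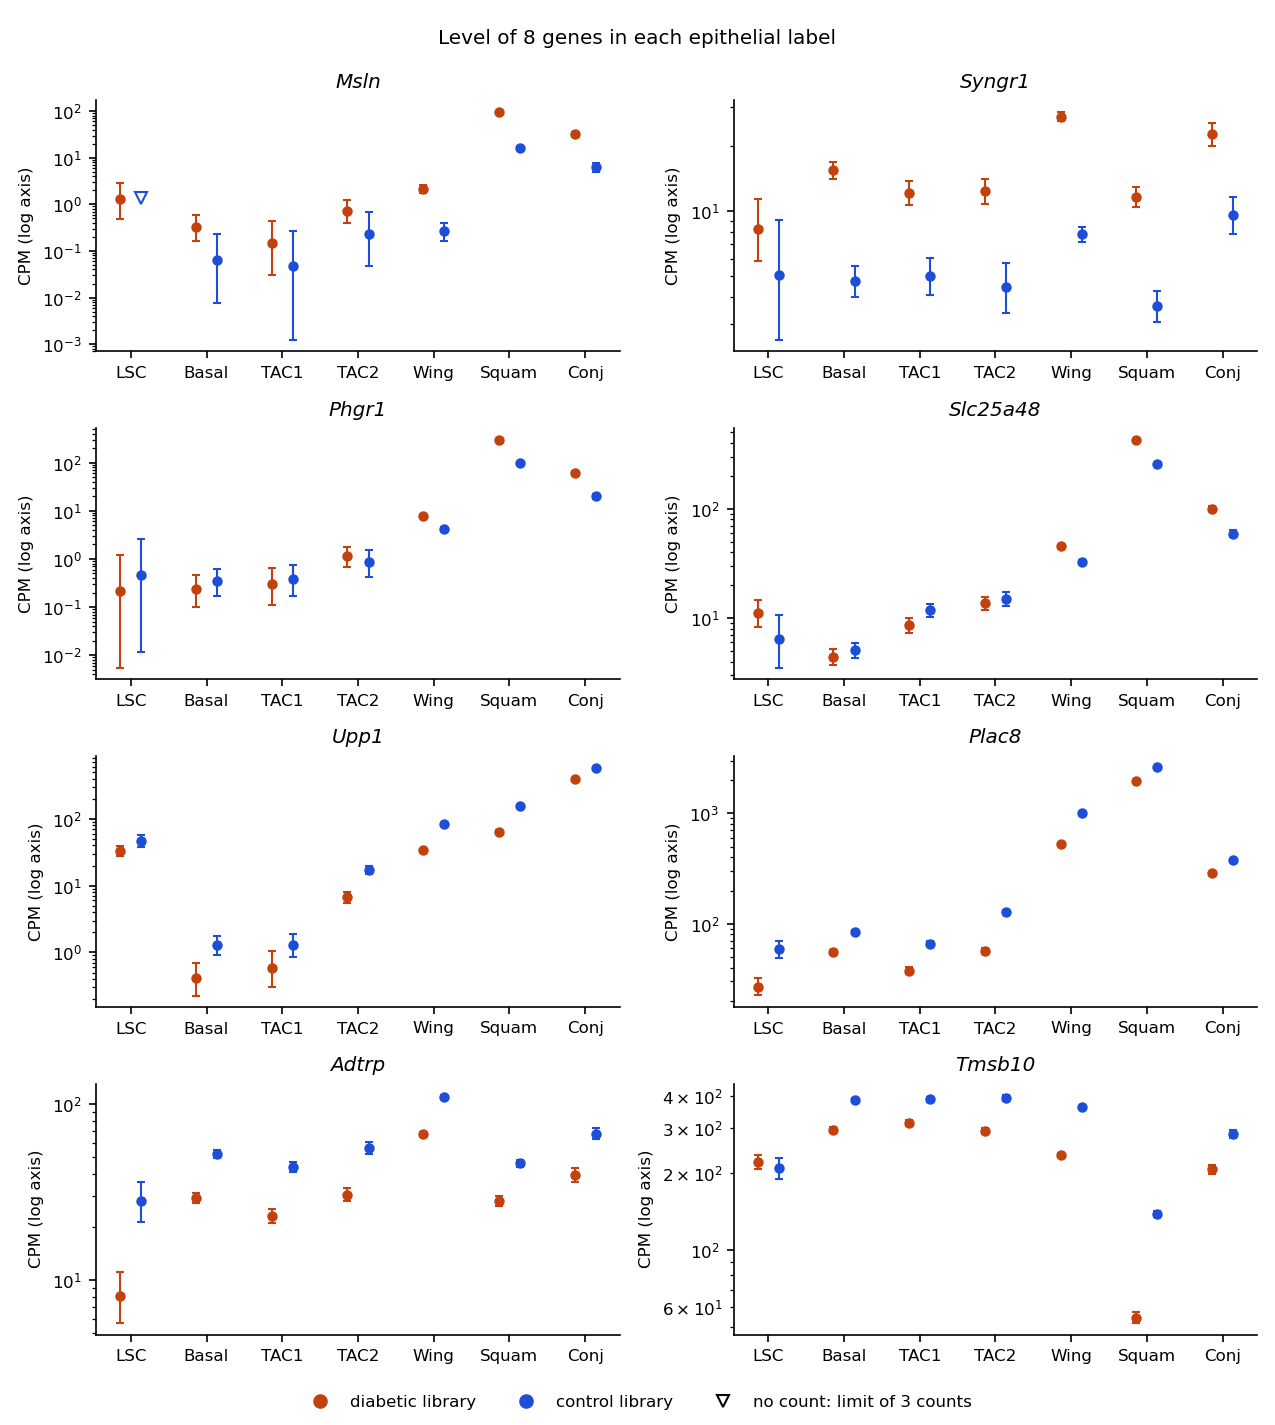
CPM on a log axis for each gene in the 7 epithelial labels, with the diabetic library in red on the left and the control library in blue on the right of each pair; bars are exact 95% Poisson intervals, and an open triangle marks the limit that a count of 0 allows. Msln, Phgr1 and Slc25a48 stand highest in Squam cells, and the Tmsb10 levels of 54.5 diabetic and 139 control CPM in Squam are its lowest.

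Msln encodes mesothelin, a lipid-anchored glycoprotein of the cell surface known from mesothelium and some carcinomas. In Squam cells Msln had 93.9 CPM in the diabetic and 16.4 CPM in the control library, a ratio of 5.74 (5.27 to 6.27). After adding 10 CPM to both levels, so that weakly counted genes weigh less, this was the largest log2 ratio of the 10313 genes tested in Squam cells. Squam cells held 85.2% of all Msln UMIs in the diabetic and 86.9% in the control library. The next level was that of Conj cells, with 31.5 CPM in the diabetic and 6.21 CPM in the control library, a ratio of 5.08. In Wing cells Msln had 2.11 CPM in the diabetic and 0.266 CPM in the control library, a ratio of 7.93 (4.95 to 13.3) that rests on 112 diabetic and 21 control UMIs.

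The share of cells with a Msln UMI followed the level. With every cell thinned at random to 5000 UMIs, so that depth is equal, 33.5% (30.9 to 36.1%) of diabetic and 7.79% (6.498 to 9.24%) of control Squam cells held a Msln UMI. Without thinning the share was 63.3% in diabetic Squam cells, of median depth 21047 UMIs, and 23.1% in control Squam cells, of median depth 22382 UMIs. Basal cells, which serve as a background for a surface-layer transcript, gave 0.173% in the diabetic library and 0.0423% in the control library after thinning, at median depths of 14438.5 UMIs in diabetic and 13146 UMIs in control cells. Wing cells gave 0.681% in the diabetic and 0.180% in the control library, and their intervals overlapped those of Basal cells. At full depth the intervals did not overlap: 3.55% of diabetic and 0.724% of control Wing cells held a Msln UMI, against 0.462% of diabetic and 0.0798% of control Basal cells. The Basal cells were the shallower ones, and the part of free RNA in these low shares was not tested. The relative Mslnl and the mesothelin-binding mucin gene Muc16 had fewer than 50 summed counts in either layer.

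Markers of mesothelium, the tissue that gave mesothelin its name, were summed too. In Squam cells the list's 4 counted genes summed to 494 CPM in the diabetic and 416 CPM in the control library, led by the keratin gene Krt7 with 402 CPM in the diabetic and 349 CPM in the control library. Their part in the Msln difference was not tested.

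Phgr1 encodes a small protein rich in proline, histidine and glycine that is abundant in the gut lining. In Squam cells Phgr1 had 298 CPM in the diabetic and 98.3 CPM in the control library, a ratio of 3.03 (2.92 to 3.15). By the log2 ratio after adding 10 CPM Phgr1 ranked 4 from the top there. In Conj cells it had 60.9 CPM in the diabetic and 20.1 CPM in the control library, also a ratio of 3.03. No difference was detectable at these counts in Basal cells, where Phgr1 had 0.237 CPM in the diabetic and 0.348 CPM in the control library, nor in LSC, TAC1 and TAC2 cells, where the intervals overlapped too. In Wing cells it had 7.77 CPM in the diabetic and 4.21 CPM in the control library, a ratio of 1.85 (1.59 to 2.14). The Phgr1 ratio in Wing cells came to 1.22, short of the rule, when cells with over 1000 CPM of the conjunctival keratin genes Krt19 or Krt4 were left out (229 of 1974 diabetic and 234 of 2902 control Wing cells). Leaving out cells with 3 or more UMIs of 5 conjunctival markers, most Wing cells, moved it the other way, to 4.87 and also short of the rule. The Squam ratio was 3.07 without the cells over 1000 CPM.

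Phgr1 UMIs were uneven over Squam cells. After thinning to 5000 UMIs, 50.8% (48.0 to 53.5%) of diabetic and 25.8% (23.7 to 28.1%) of control Squam cells held at least 1, against 0.173% of diabetic and 0.169% of control Basal cells. Unthinned, 73.3% of diabetic and 53.1% of control Squam cells did. Cells with 5 or more made up 8.56% of the diabetic and 1.82% of the control Squam cells, and the highest cell held 22 UMIs in the diabetic and 10 in the control library. The variance over cells was 3.99 times the mean in the diabetic and 2.66 times in the control library, where evenly expressed molecules drawn at random would give a value near 1. The 10% of cells with most UMIs held 48.8% of the UMIs in the diabetic and 67.7% in the control library. Such a share rises where UMIs are fewer, and the mean was 1.47 UMIs per cell in the diabetic and 0.488 in the control library. The 2 shares therefore do not show which library was the more uneven.

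**Figure D3:**
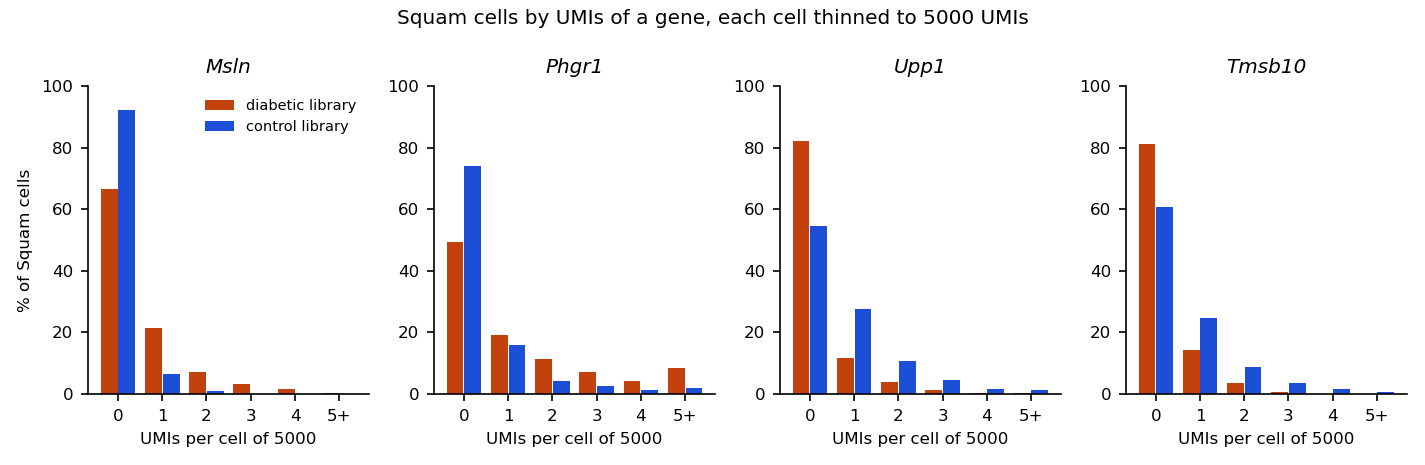
Percent of Squam cells (vertical axis) holding 0, 1, 2, 3, 4 or at least 5 UMIs of Msln, Phgr1, Upp1 and Tmsb10 after each cell was thinned to 5000 UMIs, with the diabetic library in red and the control library in blue. Bars for 5 or more Phgr1 UMIs reach 8.56% in the diabetic and 1.82% in the control library, and for Upp1 and Tmsb10 the diabetic bar is the taller one only at 0.

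Slc25a48 encodes a carrier of the inner mitochondrial membrane, reported to move choline in human cells. In Squam cells Slc25a48 had 424 CPM in the diabetic and 255 CPM in the control library, a ratio of 1.66 (1.62 to 1.71). In Conj cells it had 100.5 CPM in the diabetic and 59.2 CPM in the control library, a ratio of 1.70. Both labels passed the rule. In Wing cells its 45.2 CPM in the diabetic and 32.9 CPM in the control library gave a ratio of 1.38 (1.30 to 1.45), which did not pass. In TAC1 cells the order was the other way round, with 8.57 CPM in the diabetic and 11.8 CPM in the control library.

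After thinning, 81.3% (79.1 to 83.4%) of diabetic and 68.9% (66.5 to 71.2%) of control Squam cells held a Slc25a48 UMI, and without thinning 97.5% of diabetic and 95.1% of control Squam cells did. The unthinned shares were closer to each other than the thinned ones. In Basal cells the thinned shares were 2.03% in the diabetic and 2.37% in the control library. Among the mitochondrial carrier family, 0 of 43 other genes were higher and 1 lower in Wing cells (3.93% and 2.59% of all genes). In Squam cells 1 of 33 was higher and 0 lower (1.79% and 7.75% of all genes). Slc25a1, the citrate carrier, had 103 CPM in diabetic and 67.1 CPM in control Squam cells, a ratio of 1.54. Slc25a29, a carrier of basic amino acids, had 2.11 CPM in diabetic and 4.50 CPM in control Wing cells, where it was 2.13-fold lower. The median log2 ratio of the other carriers was 0.02 in Wing and -0.06 in Squam cells, against 0.04 and -0.08 over all genes.

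Syngr1 encodes synaptogyrin 1, a membrane protein of synaptic and synaptic-like vesicles. In Wing cells Syngr1 had 27.2 CPM in the diabetic and 7.78 CPM in the control library, a ratio of 3.50 (3.19 to 3.86). In Squam cells it had 11.6 CPM in the diabetic and 3.61 CPM in the control library, a ratio of 3.21 (2.63 to 3.93). It was higher by the rule in 6 of 7 epithelial labels, so the difference was not confined to the outer layers. In Basal cells it had 15.3 CPM in the diabetic and 4.71 CPM in the control library, and in LSC cells 8.25 CPM in the diabetic and 5.05 CPM in the control library, too few counts for the rule. In the diabetic library it ran from 8.25 CPM in LSC to 27.2 CPM in Wing cells, and in the control library from 3.61 CPM in Squam to 9.54 CPM in Conj cells. Every neighbouring pair of labels in the control order of levels overlapped, but not all labels further apart did. The control interval was 7.17 to 8.42 CPM in Wing and 3.04 to 4.26 CPM in Squam cells.

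After thinning, 12.6% (11.2 to 14.2%) of diabetic and 2.85% (2.26 to 3.54%) of control Wing cells held a Syngr1 UMI, and without thinning 41.7% of diabetic and 16.5% of control Wing cells did, at median depths of 20039 UMIs in diabetic and 19899.5 UMIs in control cells. The thinned shares in Basal cells were 7.33% in the diabetic and 2.49% in the control library. Its relatives did not pass the rule. Syngr2 had 46.4 CPM in diabetic and 48.0 CPM in control Wing cells, and Sypl, a synaptophysin-like gene, had 308 CPM in diabetic and 279 CPM in control Wing cells.

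Upp1 encodes uridine phosphorylase 1, which splits uridine into uracil and a ribose phosphate. In Wing cells Upp1 had 34.0 CPM in the diabetic and 82.4 CPM in the control library, 2.42-fold lower (2.30 to 2.55). In Squam cells it had 64.3 CPM in the diabetic and 158 CPM in the control library, 2.46-fold lower (2.34 to 2.59). Conj cells had most, with 392 CPM in the diabetic and 579 CPM in the control library, 1.48-fold lower and short of the rule. It was lower by any size in 7 of 7 labels. By the log2 ratio after adding 10 CPM it ranked 2 from the bottom in Wing and 3 from the bottom in Squam cells.

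The Wing value of Upp1 moved with cells rich in Krt19 or Krt4. Krt4 had 480 CPM in diabetic and 258 CPM in control Wing cells. Without the cells over 1000 CPM of Krt19 or Krt4, Upp1 was 3.94-fold lower in Wing and 2.86-fold lower in Squam cells. After thinning, 17.9% (15.8 to 20.1%) of diabetic and 45.4% (42.9 to 48.0%) of control Squam cells held a Upp1 UMI, against 0.129% of diabetic and 0.381% of control Basal cells. Unthinned, 40.3% of diabetic and 78.7% of control Squam cells did.

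Of the other genes on a list of uridine and pyrimidine metabolism, 0 of 23 were higher and 1 lower in Wing cells (3.93% and 2.59% of all genes). In Squam cells 0 of these 18 were higher and 4 lower (1.79% and 7.75% of all genes). Their median log2 ratio was 0.05 in Wing and -0.34 in Squam cells, against 0.04 and -0.08 over all genes. The 1 gene lower in Wing cells was Pnp, purine nucleoside phosphorylase, a purine gene on this list. Pnp had 914 CPM in diabetic and 1415 CPM in control Squam cells, 1.55-fold lower. In Wing cells Pnp had 64.3 CPM in the diabetic and 112 CPM in the control library, 1.74-fold lower. The other genes lower in Squam cells were the nucleotidase genes Nt5c3 and Nt5c3b and the uridine kinase gene Uck2.

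Plac8 encodes a small cysteine-rich protein first found in placenta. In Wing cells Plac8 had 534 CPM in the diabetic and 1007 CPM in the control library, 1.89-fold lower (1.86 to 1.91). In Squam cells, where it was highest, it had 1975 CPM in the diabetic and 2607 CPM in the control library, 1.32-fold lower (1.31 to 1.33) and short of the rule. It was lower by any size in 7 of 7 labels and lower by the rule in 5. TAC2 cells had 57.1 CPM in the diabetic and 127.5 CPM in the control library, 2.23-fold lower.

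After thinning, 71.9% (69.8 to 73.9%) of diabetic and 89.3% (88.1 to 90.5%) of control Wing cells held a Plac8 UMI, and cells with 5 or more made up 18.7% of diabetic and 40.1% of control Wing cells. Unthinned, 90.3% of diabetic and 95.2% of control Wing cells held one. Basal cells gave thinned shares of 21.2% in the diabetic and 29.5% in the control library. In Squam cells the shares were 97.2% in the diabetic and 99.1% in the control library, while cells with 5 or more UMIs made up 76.0% of the diabetic and 87.8% of the control cells. Cnfn, the cornifelin gene of the same protein family, went the other way in Squam cells, with 110.3 CPM in the diabetic and 64.4 CPM in the control library, 1.71-fold higher.

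Adtrp encodes a membrane hydrolase of fatty acid esters, also known as a regulator of tissue factor pathway inhibitor. In Wing cells Adtrp had 67.5 CPM in the diabetic and 110.4 CPM in the control library, 1.64-fold lower (1.57 to 1.70). In Squam cells it had 28.1 CPM in the diabetic and 46.2 CPM in the control library, also 1.64-fold lower (1.51 to 1.78). It was the 1 gene of the 8 that was lower by the rule in 7 of 7 epithelial labels, from 1.64-fold in Wing cells to 3.48-fold in LSC cells. There it had 8.04 CPM in the diabetic and 28.0 CPM in the control library.

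The thinned shares of Wing cells with an Adtrp UMI were 28.9% (26.9 to 31.0%) in the diabetic and 41.4% (39.6 to 43.3%) in the control library, beside Basal shares of 13.1% in the diabetic and 22.03% in the control library. Unthinned, 70.8% of diabetic and 80.6% of control Wing cells held one. After thinning, the variance over Wing cells was 1.01 times the mean in the diabetic and 1.07 times in the control library, close to random draws. The means were 0.347 UMIs per cell in the diabetic and 0.552 in the control library. At so few UMIs modest unevenness between cells would hardly show, so these values do not settle how evenly Adtrp was expressed. F3, which encodes tissue factor, had 20.6 CPM in diabetic and 41.3 CPM in control Squam cells, 2.01-fold lower. In Wing cells F3 had 236 CPM in the diabetic and 248 CPM in the control library, short of the rule.

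Tmsb10 encodes thymosin beta-10, a small protein that binds actin monomers. In Squam cells Tmsb10 had 54.5 CPM in the diabetic and 139 CPM in the control library, 2.55-fold lower (2.41 to 2.69). By the log2 ratio after adding 10 CPM it ranked 2 from the bottom of 10313 genes there. In Wing cells it had 234 CPM in the diabetic and 361 CPM in the control library, 1.54-fold lower (1.51 to 1.57). The Basal, TAC1, TAC2 and Conj levels were lower in the diabetic library by less than the rule asks, from 1.24-fold in TAC1 to 1.38-fold in Conj cells. LSC cells had 220 CPM in the diabetic and 208 CPM in the control library, with overlapping intervals.

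After thinning, 18.96% (16.9 to 21.2%) of diabetic and 39.4% (36.9 to 41.9%) of control Squam cells held a Tmsb10 UMI, and 61.4% of diabetic and 77.2% of control Wing cells did. Unthinned, 46.9% of diabetic and 72.0% of control Squam cells and 91.6% of diabetic and 93.7% of control Wing cells did. Basal cells gave 73.8% in the diabetic and 80.3% in the control library, so for this gene Basal cells are no background. The abundant relative Tmsb4x had 43824 CPM in diabetic and 43858 CPM in control Squam cells, a ratio of 0.999. Of the other genes of actin turnover, 0 of 25 were higher and 1 lower in Wing cells (3.93% and 2.59% of all genes). In Squam cells 0 of 24 were higher and 1 lower (1.79% and 7.75% of all genes). The lower gene in Wing cells was Coro1b, a coronin gene, with 3.34 CPM in the diabetic and 5.73 CPM in the control library. In Squam cells it was Pfn2, a profilin gene, with 5.95 CPM in the diabetic and 9.07 CPM in the control library. The median log2 ratio of the other actin turnover genes was -0.04 in Wing and -0.12 in Squam cells.

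**Figure D4:**
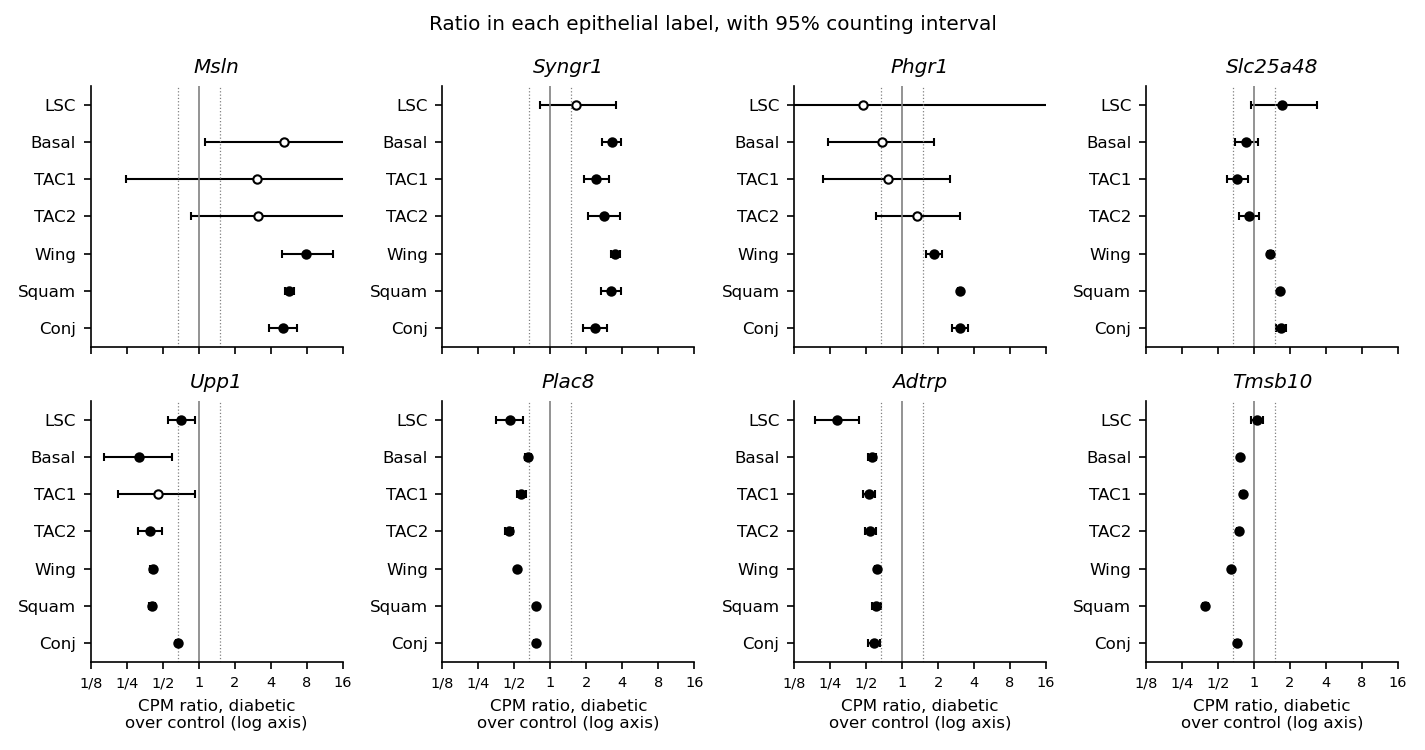
CPM ratio, diabetic over control, on a log axis for each gene in the 7 epithelial labels, with bars for the 95% counting interval; filled points had 50 or more summed counts, open points fewer, the solid line marks equal levels and dotted lines the 1.5-fold limit. Syngr1 lies right of the solid line and Adtrp left of it in all 7 labels, while for Phgr1 the bar clears the upper dotted line in Wing, Squam and Conj cells and for Slc25a48 in Squam and Conj cells.

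The labels set side by side show how far each difference reached. Ignoring size, Msln and Syngr1 stood higher in 7 of 7 labels, and Upp1, Plac8 and Adtrp stood lower in 7 of 7. Msln had too few counts for the rule in LSC, Basal, TAC1 and TAC2 cells. Its counts there ran from 3 diabetic and 1 control UMIs in TAC1 to 13 and 3 in TAC2 cells, with 6 and 0 in LSC cells. Phgr1 and Slc25a48 were higher in 4 and lower in 3. The labels with less Phgr1 were LSC, Basal and TAC1, each with at most 8 diabetic and 11 control UMIs of it. Tmsb10 was higher in 1 and lower in 6. By the rule, Conj cells had 4 of the 8 genes higher and 1 lower (2.52% and 1.95% of genes), Basal cells 1 and 3 (2.63% and 2.38%), TAC1 cells 1 and 2 (1.7% and 1.52%), TAC2 cells 1 and 3 (2.21% and 1.35%) and LSC cells 0 and 2 (2.63% and 2.61%). The percentages are of genes with enough counts for the rule. Of the 8, all had enough in Conj, 6 in Basal, 5 in TAC1, 6 in TAC2 and 5 in LSC cells.

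To set cells of like score side by side, Wing and Squam cells were put in 5 bins of a surface score. It was the summed CPM of 30 genes listed for superficial maturation, none of them among the 8. Some of these genes, such as the wing marker Dsg1a and Klf4, had less in Squam than in Wing cells in both libraries. The median score was 6309 CPM in diabetic and 6677 CPM in control Wing cells, and 11441 CPM in diabetic and 11179 CPM in control Squam cells. Of the 28 surface genes with enough counts, 0 were higher and 0 lower by the rule in either layer. Over all genes 3.93% were higher and 2.59% lower in Wing cells, and 1.79% and 7.75% in Squam cells. The median log2 ratio of the surface genes was -0.09 in Wing and 0.02 in Squam cells. The bins are ranges of a score, not cell types, and cells of a like score need not be of like maturity.

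Within bins the direction of the Wing differences stayed as in the whole label for every gene but Phgr1. Msln had 0.338 CPM in diabetic and 0 CPM in control cells of the lowest Wing bin. In the highest it had 5.26 CPM in diabetic and 0.502 CPM in control cells. Syngr1 was flat, with 28.6 CPM in diabetic and 7.59 CPM in control cells of the lowest Wing bin and 25.4 CPM in diabetic and 7.16 CPM in control cells of the highest. Upp1 had 1.69 CPM in diabetic and 9.76 CPM in control cells of the lowest bin, 5.77-fold lower. It was highest in the fourth bin, with 72.1 CPM in diabetic and 124.7 CPM in control cells, 1.73-fold lower. In the highest bin Upp1 had 52.5 CPM in diabetic and 122 CPM in control cells, 2.33-fold lower. The control intervals of the fourth and the highest bin overlapped, and the diabetic ones did not. Plac8 climbed through every bin in both libraries. It had 179.8 CPM in diabetic and 418 CPM in control cells of the lowest bin, 2.32-fold lower. In the highest bin Plac8 had 939 CPM in diabetic and 1467 CPM in control cells, 1.56-fold lower.

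In the lower Wing bins the intervals of the libraries overlapped for Phgr1, in bins 1 to 3, and for Slc25a48 and Msln, in bins 1 and 2. Phgr1 had 2.55 CPM in diabetic and 2.89 CPM in control cells of the third Wing bin, with overlapping intervals. In the fourth bin it had 13.5 CPM in diabetic and 5.64 CPM in control cells, a ratio of 2.39. Slc25a48 had 5.41 CPM in diabetic and 5.32 CPM in control cells of the lowest bin, and 27.4 CPM in diabetic and 19.5 CPM in control cells of the third, a ratio of 1.41. In the highest bin it had 121 CPM in diabetic and 77.7 CPM in control cells, a ratio of 1.56. Tmsb10 was lowest in the highest bin, with 156 CPM in diabetic and 299 CPM in control cells of the highest Wing bin.

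In Squam cells all 8 genes kept their direction in each of the 5 bins. The Msln ratio lay between 4.42 and 7.62 and the Phgr1 ratio between 2.74 and 3.76. Upp1 was between 2.12-fold and 2.73-fold lower. Phgr1 and Upp1 had less in the highest Squam bin than in the lowest in both libraries. Phgr1 had 369 CPM in diabetic and 119 CPM in control cells of the lowest bin, and 210 CPM and 68.1 CPM in the highest. Upp1 had 79.8 CPM in diabetic and 169 CPM in control cells of the lowest bin, and 40.9 CPM and 110 CPM in the highest. Tmsb10 was lower at higher scores in both libraries, with 87.2 CPM in diabetic and 205 CPM in control cells of the lowest Squam bin, and 34.8 CPM in diabetic and 90.6 CPM in control cells of the highest.

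**Figure D5:**
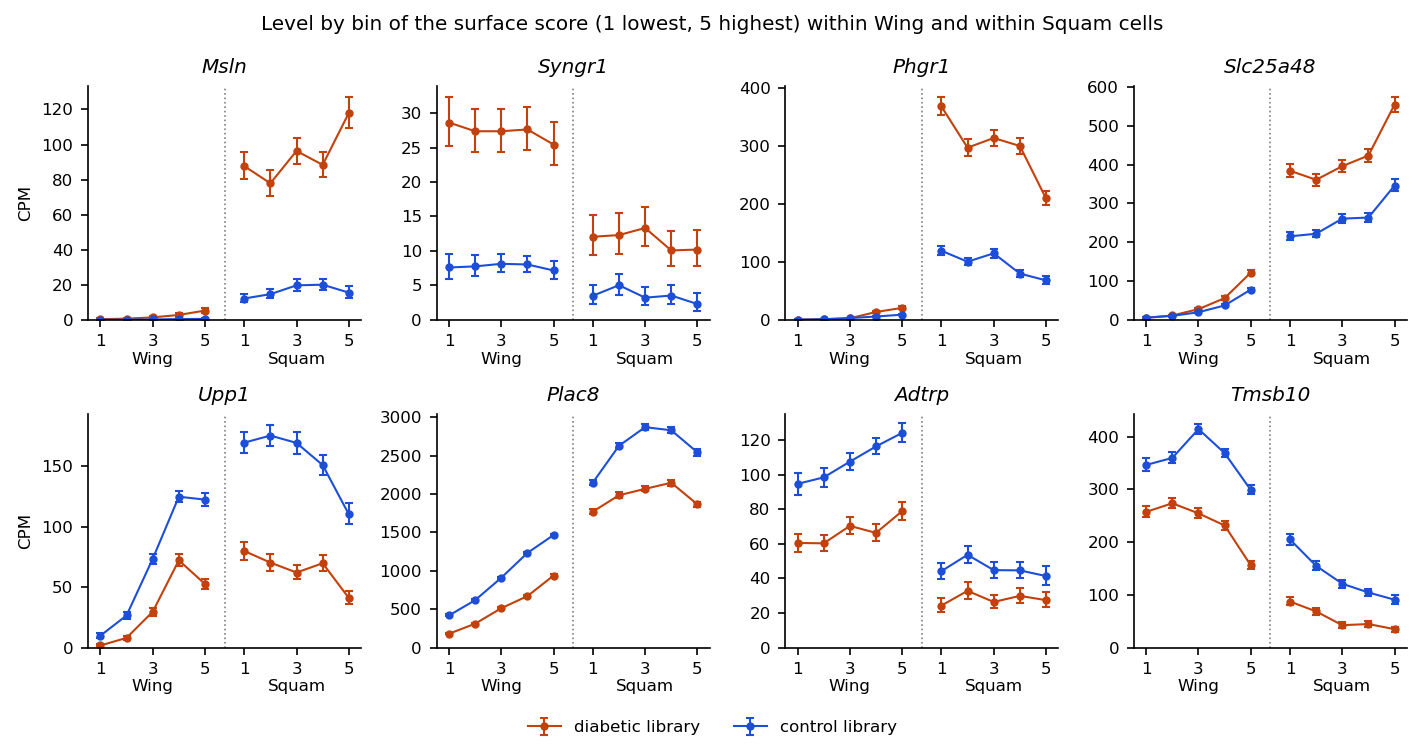
CPM (vertical axis, from 0) of each gene in 5 bins of the surface score within Wing cells (left of the dotted line) and within Squam cells (right), with the diabetic library in red, the control library in blue and exact 95% Poisson intervals as bars. The Slc25a48 lines meet in the lowest Wing bin, at 5.41 CPM in diabetic and 5.32 CPM in control cells, and part at higher scores, while the Syngr1 lines stay apart in every bin.

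Markers of other cell types were summed in the same labels. The leukocyte gene Ptprc was at 0 in both libraries in Squam cells, but the 9 leukocyte markers summed to 325 CPM in diabetic and 353 CPM in control Squam cells through Itgam and S100a9. The 5 conjunctival markers summed to 5635 CPM in diabetic and 5296 CPM in control Squam cells, and to 2397 CPM in diabetic and 2234 CPM in control Wing cells, mostly through Krt13. Stromal Dcn was at 0 in both libraries in Squam cells. The part of these cells and of free RNA in the 8 differences was not tested beyond the values given above.

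Cell by cell the 8 genes were weakly correlated at most. After thinning, the highest Pearson correlation over cells of 1 library, among Wing, Squam and Conj cells, was 0.297, between Msln and Phgr1 over 430 diabetic Conj cells. In Squam cells it was 0.257, between Msln and Slc25a48 over 1308 diabetic cells, and the lowest was -0.158, between Slc25a48 and Tmsb10 over 1541 control Squam cells. The cells of a correlation share 1 library, the counts are sparse, and nothing is read from values of this size.

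Over the 14 sums of 7 epithelial labels in both libraries, the genes most like each of the 8 were sought by Pearson correlation of log2(CPM + 10) among 6673 genes of at least 20 CPM in 1 sum. Msln was most like Phgr1 (r = 0.965), then Adamtsl4 and Ube2d1. Syngr1 was most like Fkbp5 (r = 0.910), the gene of an immunophilin induced by glucocorticoids, then Mat2b and Nck1. Fkbp5 had 93.5 CPM in diabetic and 32.2 CPM in control Wing cells, and 68.3 CPM in diabetic and 11.9 CPM in control Squam cells.

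Phgr1 was most like Cbln3, Upk3b and Fam160a2 (r of 0.979 to 0.981), and Slc25a48 like Map4, Slc11a2 and Aif1l (0.988 to 0.990). Upk3b, which encodes a uroplakin of the plaques on bladder surface cells, had 80.9 CPM in diabetic and 49.7 CPM in control Squam cells. Upp1 was most like Ap1m2, Blnk and Areg (0.977 to 0.983), and Plac8 like P2ry2, Arhgap27os1 and St6galnac1 (0.967 to 0.980). Areg, the gene of the growth factor amphiregulin, had 12.8 CPM in diabetic and 21.4 CPM in control Wing cells. Other like genes differed little between the libraries or went the other way. Ap1m2 had 37.9 CPM in diabetic and 43.9 CPM in control Wing cells, and Ube2d1 54.6 CPM and 52.0 CPM in Squam cells. P2ry2 had 32.8 CPM in diabetic and 43.1 CPM in control Wing cells, but 119 CPM and 95.3 CPM in Squam cells. Adtrp was most like Scd2, Rbx1 and Mvk (0.949 to 0.961), and Scd2, a fatty acid desaturase gene, had 452 CPM in diabetic and 680 CPM in control Wing cells. Tmsb10 was most like Atp5e, Tbca and Shisa5 (0.965 to 0.972). The sums share 2 libraries and the labels' order, so high values are common, and the named genes depend on the measure. With log2(CPM + 1) all 3 genes stayed for Syngr1 and Tmsb10 only. With Spearman correlation all 3 stayed for Adtrp only, 1 stayed for Syngr1 and for Plac8, and 0 for Msln, Phgr1, Slc25a48, Upp1 and Tmsb10.

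Among genes of differentiated gut-type surface epithelium, 1 of 10 others was higher and 0 lower in Wing cells (3.93% and 2.59% of all genes). In Squam cells 1 of 9 was higher and 1 lower (1.79% and 7.75% of all genes). The median log2 ratio of these others was 0.24 in Wing and 0.10 in Squam cells, against 0.04 and -0.08 over all genes. Krt18 had 2.83 CPM in diabetic and 1.01 CPM in control Wing cells, a ratio of 2.79, and 1.504 CPM in diabetic and 0.743 CPM in control Squam cells. Its keratin partner Krt8 had 9.71 CPM in diabetic and 16.3 CPM in control Squam cells, 1.68-fold lower.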

How the data were processed

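Single-cell RNA was measured in 2 libraries, diabetic and control. The authors deposited raw counts of UMIs, whole numbers per gene and cell, and a table of each cell's group and label. The submitters' processing notes list Cell Ranger 5.0.0, Seurat 4 and mm10, with no role for any. How cells and genes were filtered, how clusters were named and whether doublets were removed is not given in the sources used here. Depth was 171030636 UMIs in the diabetic and 196359192 UMIs in the control library.

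The 8 genes and all gene lists were chosen with earlier results of these data known. Counts were summed per label and library and expressed as CPM with exact 95% Poisson intervals. Ratios had exact conditional binomial intervals, computed on counts and tested on simulated data. These cover counting error only. A count of 0 allows up to 3 counts. Shares of cells had exact Clopper-Pearson intervals after thinning to 5000 UMIs, which left out 39 diabetic and 46 control Squam cells and 65 diabetic and 129 control Wing cells. Genes named beyond the 8 were the 3 of highest correlation with each, and from each list those past the rule of size, at most 4 per list by log2 ratio after adding 10 CPM. Relatives set beside them for contrast, and genes of the marker lists, were named after their values were seen. Doublets were scored with Scrublet, whose automatic threshold marked 0 cells, so an alternative left out the top 8% of scores (706 diabetic and 769 control cells). Further settings tried were median-of-ratios scaling, equal weight per cell, thinning, equal weight per surface bin, removal of cells over 10% mitochondrial counts, minimums of 10 and 200 counts and a ratio of 2. Removal of shared barcodes, of cells with 3 or more UMIs of conjunctival markers and of cells over 1000 CPM of Krt19 or Krt4 was chosen after seeing the data. Positions are from GENCODE M21 on GRCm38, and promoters from RefSeq on GRCm38.p6, where 7 of the 8 genes matched, all but Msln. The software comprised scanpy 1.11.5 with pandas 2.3.3, scipy 1.17.1 for intervals, numpy 2.4.6, matplotlib 3.10.9 for figures and Python 3.11.15.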

Additional observations from a re-analysis of the deposited data

Results flagged for a closer look

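Slc25a48 had a diabetic over control ratio of 0.728 (0.595 to 0.888) in TAC1 cells, 8.57 CPM in the diabetic and 11.8 CPM in the control library, while its intervals lay above 1 in Wing, Squam and Conj cells, with ratios of 1.38, 1.66 and 1.70. The opposite directions drew attention to it. The difference between labels was not tested, since each group is 1 library.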

How the results depend on the processing

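Each ratio of the 8 genes kept its direction under the alternatives that gave a value, except Slc25a48 in Wing cells, whose ratio was 0.988 without cells holding 3 or more UMIs of conjunctival markers. That filter took 1221 of 1974 diabetic and 1860 of 2902 control Wing cells and 1275 of 1347 diabetic and 1544 of 1587 control Squam cells, because Krt13 is counted throughout these labels, and Syngr1 in Squam cells then gave no value. Of the ratios recomputed, 98 stayed within the interval of the reported one, 44 left it in the same direction and 1 reversed. The library with the higher share of cells with a UMI was the same at each thinning depth and unthinned for all 8 genes in both layers. Under the filter of 3 or more conjunctival UMIs 1 of the 8 genes was higher in Wing cells in place of 3, Msln and Phgr1 (ratio 4.87) losing the call. Tmsb10 lost it too (1.28-fold lower), Upp1 was 6.11-fold lower, and in Squam cells Adtrp lost the call while Plac8 gained one (1.56-fold lower). Over all genes, 249 were higher in Wing cells in place of 475, and 182 were lower in Squam cells in place of 799. With a ratio of 2, Wing cells had 153 genes higher and 119 lower (313 at 1.5), 1 of the 8 being lower in place of 4, and Squam cells had 80 higher (185 at 1.5) and 295 lower. With a minimum of 200 counts, 308 genes were higher in Wing and 480 lower in Squam cells. Median-of-ratios scaling gave 264 higher and 600 lower genes in Squam, and 398 higher and 357 lower in Wing cells, and moved no call of the 8, nor did leaving out cells with shared barcodes. The Msln ratio in Wing cells was 4.07 after thinning, from few counts. Slc25a48 in Wing cells reached 1.56 with equal weight per cell and 1.64 after thinning. The depth does not settle levels under about 1 CPM, and the lack of replicate libraries limits every value. No paired analysis was possible because each group is 1 library.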
